A study of Mus musculus with 13 samples.

Results

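The nuclear genes of oxidative phosphorylation were examined across sorted bone marrow stem and progenitor cells of wild-type mice and of mice that carry the PML-RARA fusion of acute promyelocytic leukaemia. Members were chosen by name: gene symbols that begin with Nduf, Uqcr, Cox4, Cox5, Cox6, Cox7, Cox8 or Atp5, the Sdh genes and Cycs, each read by probe sets that the array annotation ties to 1 gene. Of 76 matching symbols, 72 had the 3 or more such probe sets required, out of 15123 genes that met the same requirement. Atp5h, Cox6c, Cox7c and Ndufa12 had fewer, and Cycs was not analysed here. The rule uses names and probe set numbers and no measured level. Of the 72 members, 70 passed the filter on low values: 31 of complex I, 4 of complex II, 7 of complex III, 11 of complex IV, 12 of complex V and 5 others. Those 5 carry a matching name but are not subunits of a complex: the complex I assembly factors Ndufaf1 and Ndufaf2, and Atp5s, Atp5sl and Cox4nb, whose current RefSeq symbols are Dmac2l, Dmac2 and Emc8. Complex IV as counted here includes Ndufa4, in spite of its name, and Cox7a2l, a supercomplex factor. The 2 members below the filter were Cox7b2, a testis isoform, at 2.30 to 4.19 across the 13 arrays, and Cox8b, a heart and muscle isoform, at 5.30 to 6.18. Levels here and below are log2 intensities, and a gene's value is the median over its probe sets.

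The respiratory chain sits in the inner mitochondrial membrane. Complex I takes electrons from NADH and complex II takes them from succinate, a step it shares with the citric acid cycle. Complex III hands them on to cytochrome c and complex IV to oxygen, and complex V, the ATP synthase, uses the resulting proton gradient to make ATP. Quiescent haematopoietic stem cells are known to rely less on this pathway than the dividing progenitors that descend from them, and respiration rises when stem cells leave quiescence.

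The series profiled 13 RNA samples of sorted marrow cells, each from individual Bl/6 Taconic mice, on Affymetrix Mouse Exon 1.0 ST arrays. The mCG-PR mice express PML-RARA from the murine cathepsin G locus, a myeloid gene, and the wild-type (WT) controls are littermates. KLS is the usual name for Kit-positive, lineage-negative, Sca-1-positive marrow cells, which hold the stem cells and early progenitors, and SLAM names the fraction enriched for stem cells by SLAM family receptors. There were 4 WT KLS samples (replicates 1 and 2 of 13 weeks, replicates 3 and 4 of 12 weeks), 3 mCG-PR KLS samples of 6 weeks, 2 mCG-PR KLS samples of 13 weeks, 2 WT SLAM samples of 6 weeks and 2 mCG-PR SLAM samples of 7 weeks. Age therefore differs along with cell type between the WT groups, and along with genotype between WT KLS and mCG-PR KLS of 6 weeks, so that age and these contrasts cannot be told apart.

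Kit lay between 9.56 and 10.51 on all 13 arrays, Slamf1 (the SLAM receptor that marks stem cells) was 7.47 and 7.68 in WT SLAM and 6.21 and 6.63 in mCG-PR SLAM against 5.17 to 6.31 in KLS, and Cd48, which the sort excludes, was 4.24 to 5.56 in SLAM against 8.28 to 9.61 in KLS. Cd48 thus separated the cell types on every array, while Slamf1 of mCG-PR SLAM reached into the KLS range. WT SLAM replicate 2 stood apart with a mean of 10.20 over 9 late neutrophil genes, where the other 12 arrays gave 7.25 to 8.81, and a B cell mean of 7.36 where the others gave 5.88 to 6.56. The Y-linked genes Eif2s3y and Jarid1d averaged 4.28 and 4.23 in both mCG-PR SLAM samples and 4.53 in mCG-PR KLS of 6 weeks replicate 3, against 7.67 to 8.48 elsewhere. The mean of 17 mitotic genes differed between cell types, with all 17 lower in SLAM than in KLS in both genotypes. The part of these differences in the results below was not tested, and in sorted bulk samples fewer cells of a type and less RNA per cell cannot be told apart.

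The members' median was lowest in the mCG-PR SLAM arrays. It was 9.52, 9.22, 9.75 and 9.50 in WT KLS, 9.26, 9.92 and 9.57 in mCG-PR KLS of 6 weeks, and 9.35 and 9.34 in mCG-PR KLS of 13 weeks. It was 9.25 and 9.44 in WT SLAM and 8.88 and 8.57 in mCG-PR SLAM. WT SLAM lay within the range of the KLS arrays, whereas both mCG-PR SLAM arrays lay under the other 11. Over all 10586 genes tested the array median was 7.01 and 7.05 in mCG-PR SLAM and 6.98 to 7.32 on the other arrays. Genes above the 80th percentile of mean level, the range that holds 62 of the 70 members, had their lowest medians on the same arrays, 8.31 and 8.22 against 8.31 to 8.88. Relative to those genes the members stood 0.57 and 0.35 higher in mCG-PR SLAM and 0.60 to 1.06 higher on the other 11 arrays. Gene by gene, 18 of the 70 members (25.7%) had both mCG-PR SLAM arrays below the other 11 arrays, where 8.97% of all genes tested and 16.7% of the genes above the 80th percentile of mean level did. Those 18 comprised 8 of 31 complex I genes, 2 of 7 of complex III, 4 of 11 of complex IV and 4 of 12 of complex V, with none of the 4 complex II genes and none of the 5 others.

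**Figure D1:**
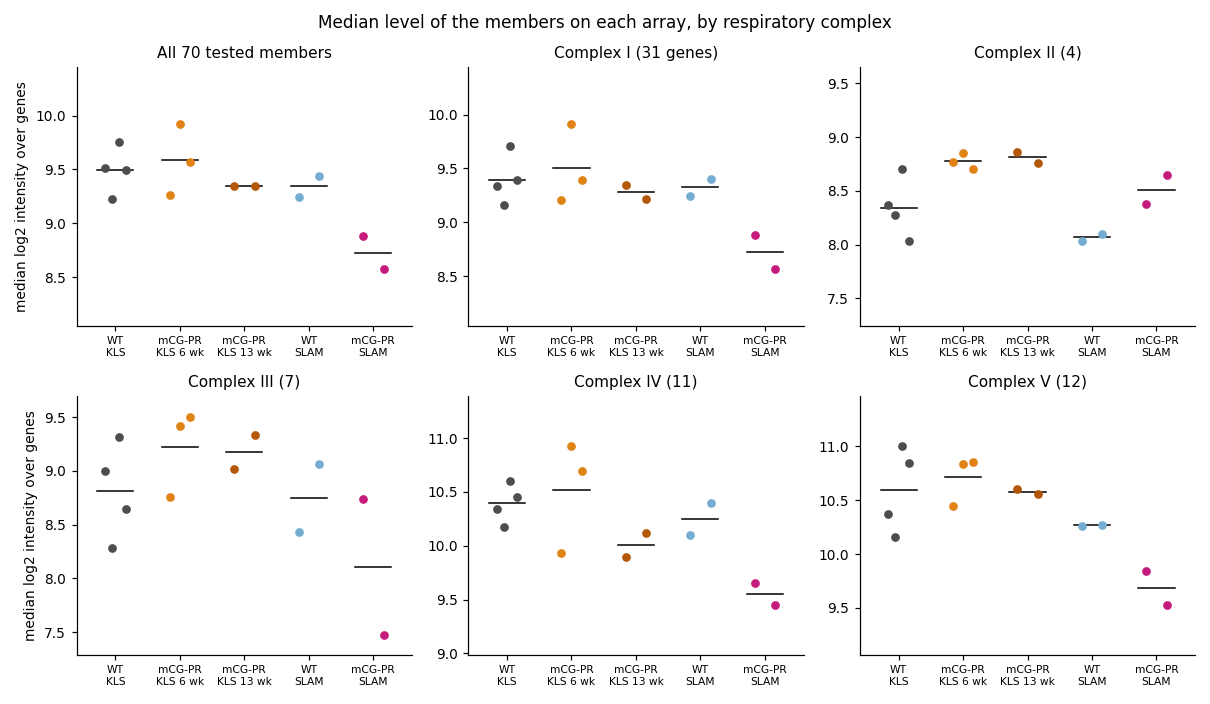
Median log2 intensity over the tested members on each of the 13 arrays, for all 70 members and for complexes I to V; points are arrays, bars are group means, and the y axes differ in position but all span the same range. The mCG-PR SLAM arrays, at 8.88 and 8.57 over all members, lie lowest; for complex II they lie above both WT SLAM arrays, and for complex III replicate 1, at 8.74, lies within the range of the other groups. Levels are not comparable between complexes, since each probe set has its own response.

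Between WT SLAM and WT KLS, which asks how stem-cell-enriched cells differ from the wider compartment without the fusion gene, 1 member changed. Ndufb3, an accessory subunit of the membrane arm of complex I, read 11.24, 11.05, 11.43 and 11.36 in WT KLS and 10.56 and 9.32 in WT SLAM. Every WT SLAM value lay under every WT KLS value, and the WT SLAM pair itself was far apart. The change was -1.33 ± 0.32 (standard error of the limma fit, n = 2 against 4, adjusted p = 0.037), or 2.52-fold lower, and all 5 of its probe sets were lower. The adjusted p of Ndufb3 was 0.0577, 0.0624 or 0.0572 without WT KLS replicate 1, 3 or 4, and 0.107 with the mean of its probe sets. With WT SLAM replicate 2 left out it was -0.71 with an adjusted p of 0.482, and the member called in its place was Atp5s, at -2.06 (adjusted p = 0.0421). The 1 member called is 1.43% of 70, beside 2.77% of all genes tested called lower.

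The remaining members moved in both directions between WT SLAM and WT KLS. The median change over the 70 members was -0.13, beside -0.05 over all genes tested and -0.28 over genes above the 80th percentile, with 28 members higher and 42 lower. For 9 members (12.9%) all WT SLAM values lay below all WT KLS values, beside 22.3% of all genes and 35.4% of the highly expressed ones. Complex I had a median of 0.00 (17 higher, 14 lower), complex II -0.37 (all 4 lower), complex III -0.22, complex IV -0.15 and complex V -0.30. Among genes that did not pass, Sdha, the flavoprotein of complex II, read 9.05 and 9.16 in WT SLAM against 9.75 to 10.08 in WT KLS (-0.80 ± 0.24, adjusted p = 0.0905). Ndufs4, an accessory subunit of complex I whose loss causes Leigh syndrome, read 8.89 and 9.33 against 9.76 to 9.99 (-0.77 ± 0.28, adjusted p = 0.143). For these genes, too, the SLAM and KLS arrays did not overlap. Cox6b1 of complex IV, which faces the intermembrane space, was at -0.76 (adjusted p = 0.241), and Uqcrb of complex III at -0.60, the widest difference of its complex.

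On the higher side, Atp5d, the delta subunit of the ATP synthase's central stalk, read 8.67 and 9.71 in WT SLAM and 7.64 to 8.61 in WT KLS. Its values did not overlap, the change was 1.12 ± 0.42 (adjusted p = 0.16), and all 6 probe sets were higher. Ndufa13, a complex I subunit also known as Grim19, read 10.02 and 10.44 against 8.95 to 9.86, again without overlap and with all 7 probe sets higher (0.89 ± 0.40, adjusted p = 0.257). Cox6a1, the widely expressed form of a complex IV subunit, was at 0.51 ± 0.30 (adjusted p = 0.403) with overlapping arrays. None of these 3 passed.

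The same cell types were compared within the mCG-PR mice. Both SLAM samples and KLS replicate 3 had low Y-linked signal, unlike KLS replicates 1 and 2, and the part of this was not tested. Between mCG-PR SLAM of 7 weeks and mCG-PR KLS of 6 weeks, 11 members fell and 0 rose: Ndufs6, Ndufa5, Ndufs1, Ndufb3 and Ndufs4 of complex I, Uqcrq and Uqcrb of complex III, Cox6b1 of complex IV, and Atp5o, Atp5a1 and Atp5c1 of complex V. They are 15.7% of the 70 members, beside 12.3% of all genes tested and 25.7% of genes above the 80th percentile called lower, with no test of these shares against each other. The members' median change was -0.71, beside -0.19 over all genes and -0.59 over the highly expressed ones, and 62 of 70 members were lower. In 43 members (61.4%) all mCG-PR SLAM values lay below all mCG-PR KLS values, beside 35% of all genes and 58.4% of the highly expressed ones. The median change was -0.70 in complex I, -0.60 in complex III, -0.86 in complex IV and -0.87 in complex V, against -0.23 in complex II. By the median of probe set changes, complex II had a median of -0.54 with all 4 genes lower, beside -0.66 in complex I and -0.60 in complex III. The gene value of Sdhc was at 0.09 while 6 of its 7 probe sets were lower, with a median of -0.91. The number called rested on single arrays: it was 3 without mCG-PR SLAM replicate 1, 2 without mCG-PR SLAM replicate 2, 6 without mCG-PR KLS replicate 2 or 3 and 21 without mCG-PR KLS replicate 1. It was 4 after quantile normalisation and 29 without array weights.

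**Figure D2:**
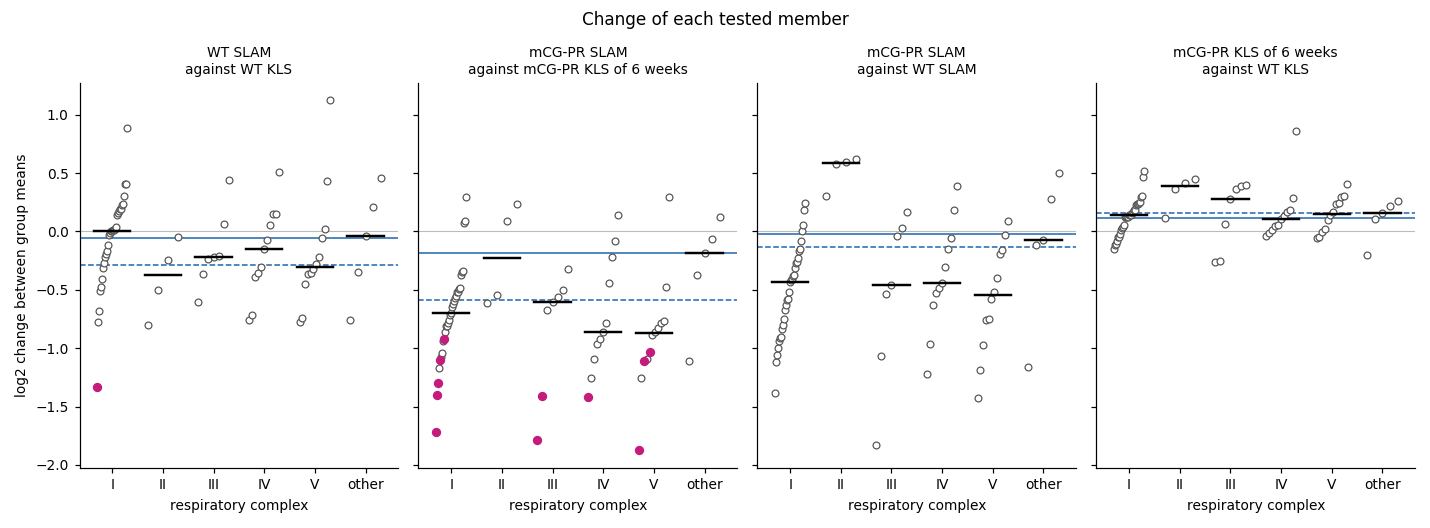
Log2 change of each of the 70 tested members by respiratory complex in 4 comparisons; filled points passed (adjusted p under 0.05), black bars are medians per complex, the solid blue line is the median of all 10586 genes tested and the dashed line that of genes above the 80th percentile of mean level. Medians of complexes I, III, IV and V lie between -0.60 and -0.87 in the second panel, while complex II stands above 0 in the third.

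Among complex I members, Ndufs6, a zinc-binding accessory subunit of the NADH-oxidising arm, read 9.32, 10.64 and 10.38 in mCG-PR KLS and 8.55 and 8.23 in mCG-PR SLAM. The groups were apart although the KLS values were widely spread, and the change was -1.72 ± 0.51 (3.30-fold lower, adjusted p = 0.0373). Ndufs1, the large iron-sulfur subunit through which electrons pass from NADH, read 8.82, 8.63 and 8.61 in KLS and 7.24 and 7.53 in SLAM. Its KLS values were tightly grouped, and the change was -1.30 ± 0.29 (2.46-fold lower, adjusted p = 0.00892), with 18 of 20 probe sets lower. Ndufa5, an accessory subunit of the arm that reduces ubiquinone, read 9.05, 9.93 and 9.40 against 7.55 and 8.58, with a change of -1.40 ± 0.41 (adjusted p = 0.0374). Its values did not overlap, but the SLAM pair was spread over more than the gap to KLS. Ndufb3 read 11.04, 11.59 and 11.23 against 10.43 and 9.93 (-1.10 ± 0.33, adjusted p = 0.0398). Ndufb3 is thus the member that passed in WT and in mCG-PR cells alike in the main fit. Without mCG-PR KLS replicate 2 or 3 it was not among the members called here. Ndufs4 was at -0.92 (adjusted p = 0.043), with all 9 probe sets lower; as the eleventh by size it fell outside the rule for named genes and is named to complete the count.

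Both complex III members that fell are small subunits without a redox centre. Uqcrq read 8.75, 9.42 and 9.50 in mCG-PR KLS and 7.50 and 7.38 in mCG-PR SLAM. The SLAM values were close together and far below the lowest KLS value (-1.78 ± 0.42, 3.44-fold lower, adjusted p = 0.0134), and all 6 probe sets were lower. Uqcrb, which helps to form the ubiquinone site, read 9.48, 10.13 and 9.95 against 8.88 and 8.01 (-1.41 ± 0.37, adjusted p = 0.0227). The groups did not overlap, and all 5 probe sets were lower. In complex IV, Cox6b1 read 10.82, 11.36 and 11.41 against 9.35 and 10.21 (-1.42 ± 0.34, 2.67-fold lower, adjusted p = 0.0138). All 8 of its probe sets were lower without overlap of the arrays, the most uniform record of the 11.

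In the ATP synthase, Atp5o, the subunit that joins the catalytic head to the peripheral stalk, had the lowest change of all members. It read 9.65, 10.14 and 9.91 in mCG-PR KLS and 7.88 and 8.18 in mCG-PR SLAM. Even the higher SLAM value was below every value of the other 4 groups, and the change was -1.87 ± 0.34 (3.67-fold lower, adjusted p = 0.00328), with 5 of 6 probe sets lower and 1 higher. Atp5a1, the alpha subunit of the catalytic head, read 10.50, 10.69 and 10.66 against 9.32 and 9.68 (-1.11 ± 0.30, adjusted p = 0.0242), with 15 of 16 probe sets lower. Atp5c1, the gamma subunit of the rotating central stalk, read 10.62, 11.04 and 11.12 against 10.41 and 9.37. Here the higher SLAM value was close to the lowest KLS value, and the change was -1.03 ± 0.32 (adjusted p = 0.048). The proton-channel genes Atp5g2 and Atp5g3, which encode the same c subunit, were at -1.25 (adjusted p = 0.0741) and -0.78 (adjusted p = 0.192) and did not pass.

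**Figure D3:**
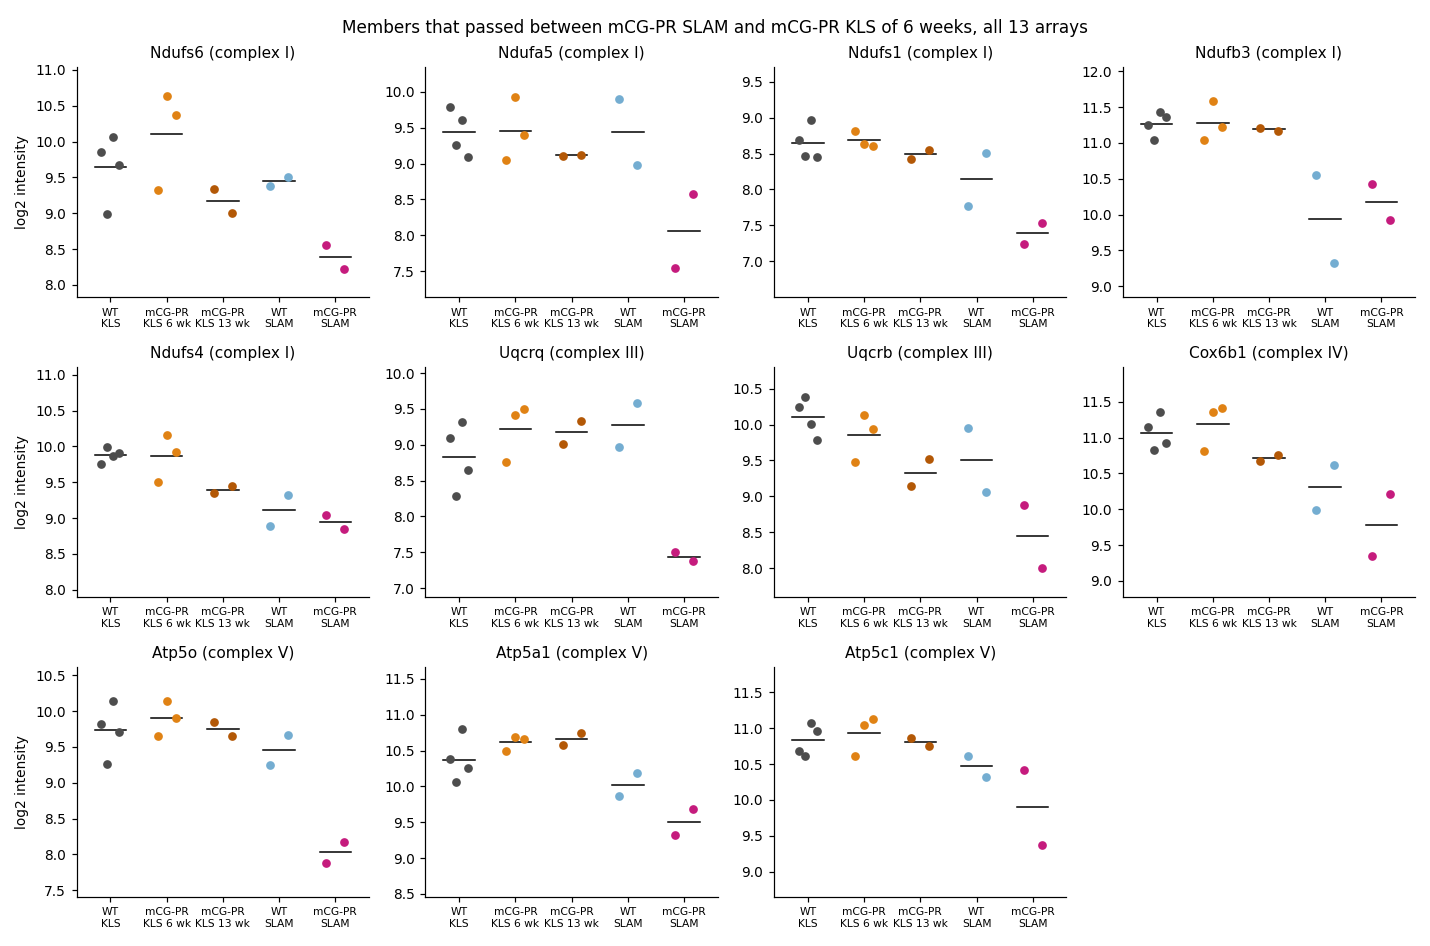
Log2 intensity on each of the 13 arrays for the 11 members that passed between mCG-PR SLAM and mCG-PR KLS of 6 weeks; points are arrays, bars are group means, and every y axis spans the same range. Uqcrq and Atp5o sit at 7.38 to 8.18 in mCG-PR SLAM, below all other arrays, whereas Ndufb3 is lower in both SLAM groups.

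No member rose. The smallest p-values on the higher side were those of Ndufa2 (0.30 ± 0.37, adjusted p = 0.668), Atp5j (0.29 ± 0.38, adjusted p = 0.687) and Sdhd (0.23 ± 0.31, adjusted p = 0.689), and the arrays overlapped for all 3. When probe sets were averaged in place of taking their median, Ndufa2 was at -0.18 and Sdhd at -0.35.

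Promoter windows of RefSeq genes on GRCm38.p6, from 250 bases before to 50 bases after the start, were on hand for 60 of the 72 members. Motifs known from respiratory genes were searched on both strands: the NRF1 core GCGCANGCG, the ETS motif CCGGAAG bound by GABP, and the YY1 motif AAGATGGCG. The NRF1 core was present in 17 of the 60 (28.3%), beside 9.63% of protein-coding genes with a window. The ETS motif was present in 14 (23.3%, beside 12.9%) and the YY1 motif in 7 (11.7%, beside 2.14%), and 32 members (53.3%, beside 21.8%) held at least 1 of them. Of the 11 members that fell in mCG-PR SLAM, 7 had a window. The bases after the start, which are not printed, held further matches. These were the NRF1 core in Atp5o at 10 to 18, and the YY1 motif in Ndufs4 at 35 to 43 and in Ndufs6 at 33 to 41. The 100 bases before the start are shown for Ndufb3, which passed in both genotypes, and for the members with a match there, which were chosen after their values were seen. Capitals mark the motif, and none of the marked matches overlaps another.
Ndufb3 (complex I), chr1:58586297-58586396, plus strand, no match: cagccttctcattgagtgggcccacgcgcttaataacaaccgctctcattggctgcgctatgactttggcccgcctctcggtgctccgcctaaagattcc
Ndufs6 (complex I), chr13:73328483-73328582, minus strand, NRF1 core in reverse: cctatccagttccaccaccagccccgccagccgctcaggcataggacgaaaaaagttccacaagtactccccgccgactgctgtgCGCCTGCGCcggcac
Ndufa5 (complex I), chr6:24527691-24527790, minus strand, NRF1 core: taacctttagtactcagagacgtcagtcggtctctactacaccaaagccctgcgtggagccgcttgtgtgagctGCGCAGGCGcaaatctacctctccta
Cox6b1 (complex IV), chr7:30626115-30626214, minus strand, ETS motif in reverse: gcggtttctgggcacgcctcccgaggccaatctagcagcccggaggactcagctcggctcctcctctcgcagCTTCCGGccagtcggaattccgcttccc
Atp5c1 (complex V), chr2:10080433-10080532, minus strand, NRF1 core: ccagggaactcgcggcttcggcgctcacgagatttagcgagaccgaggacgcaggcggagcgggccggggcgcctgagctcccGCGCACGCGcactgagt
In these windows the NRF1 core lay 7 to 26 bases before the start and the ETS motif 22 to 28 bases before it. Ndufa5 and Atp5c1 each have another RefSeq start. From the other Ndufa5 start the same match lies at -190 to -182. The 100 bases before the other Atp5c1 start hold no match, so these distances depend on the start taken. A match is a run of letters and not a measured binding site.

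Between the SLAM groups of the 2 genotypes, 7-week mCG-PR against 6-week WT, 0 members passed, beside 0.0283% of all genes tested in either direction, and 8 members had an unadjusted p under 0.05, all lower, beside 7.3% of all genes in either direction. The median change over the members was -0.41, beside -0.02 over all genes and -0.14 over genes above the 80th percentile, and 55 of 70 members were lower. In 29 members (41.4%) both mCG-PR values lay below both WT values, beside 18.8% of all genes and 25.5% of the highly expressed ones. The median was -0.44 in complex I, -0.46 in complex III, -0.44 in complex IV and -0.55 in complex V. Relative to all genes the members' median of -0.39 became -0.12 without mCG-PR SLAM replicate 2, and was -0.37 without WT SLAM replicate 2, the array with the high neutrophil genes.

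The lowest change was that of Uqcrq, which read 8.97 and 9.58 in WT SLAM and 7.50 and 7.38 in mCG-PR SLAM. The pairs were clearly apart, yet the change of -1.83 ± 0.55 had an adjusted p of 0.419. Atp5o read 9.25 and 9.67 against 7.88 and 8.18 (-1.43 ± 0.44, adjusted p = 0.419). Ndufa5 read 9.91 and 8.99 against 7.55 and 8.58 (-1.38 ± 0.53, adjusted p = 0.555). None of these pairs overlapped. The fit without array weights, which lets the SLAM arrays share the smaller spread of the KLS arrays, called Uqcrq (adjusted p = 0.0175) and Atp5o. Other members with non-overlapping pairs were Cox7b, an X-linked complex IV subunit (-1.22, adjusted p = 0.628), and Cox7a2, the widely expressed form of another (-0.97, adjusted p = 0.735). The other X-linked members, Ndufa1 and Ndufb11 of complex I, were at -0.84 and 0.05. The value of Ndufb11 depended on the summary: the median change of its probe sets was -0.65, and averaging the probe sets gave -0.57. The Y-linked gene Eif2s3y read 8.36 and 8.93 in WT SLAM and 3.49 and 3.61 in mCG-PR SLAM. In this comparison genotype and the Y-linked difference therefore cannot be told apart.

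Complex II went the other way on the gene values. Sdha read 9.87 and 9.58 in mCG-PR SLAM against 9.05 and 9.16 in WT SLAM (0.62 ± 0.32, adjusted p = 0.748). The iron-sulfur subunit gene Sdhb was at 0.31, and the membrane anchors Sdhc and Sdhd were at 0.58 and 0.60, none of which passed. For all 4 genes both mCG-PR values lay above both WT values, which held for 16.4% of all genes tested. The probe sets were divided. Of 17 Sdha probe sets 8 were higher and 9 lower, with a median change of -0.10. Of 7 Sdhc probe sets 2 were higher and 5 lower, with a median of -0.63, and averaging the probe sets turned Sdhc to -0.41. Sdhb, with 7 of 9 probe sets higher, and Sdhd, with 4 of 6, kept medians of 0.27 and 0.16. Taken by probe sets, complex II had a median of 0.03, while complexes I, III, IV and V had -0.43, -0.44, -0.49 and -0.33. Over all 70 members, 62 were lower by this measure, and 9 differed in sign from their gene value.

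**Figure D4:**
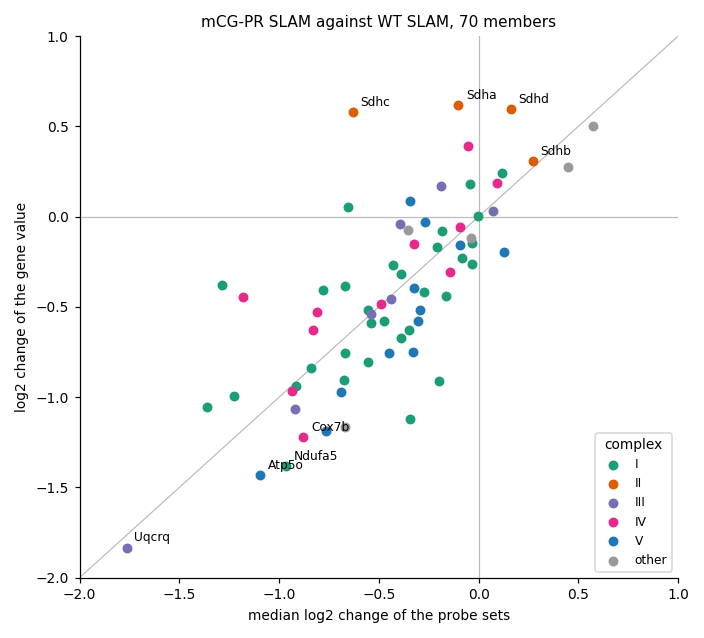
Log2 change between mCG-PR SLAM and WT SLAM for the 70 tested members, with the change of the gene value on the y axis and the median change of the gene's probe sets on the x axis; the diagonal marks equality, and colours mark complexes. Uqcrq and Atp5o are low on both axes, whereas Sdhc has a gene value of 0.58 and a probe set median of -0.63.

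Whether the step from KLS to SLAM differed between the genotypes was tested as the genotype effect in SLAM minus the genotype effect in KLS of 6 weeks. The WT step runs from KLS of 12 to 13 weeks to SLAM of 6 weeks. The mCG-PR step runs from KLS of 6 weeks to SLAM of 7 weeks. Y-linked signal was low in both mCG-PR SLAM samples and high in both WT SLAM samples. Age and the Y-linked signal therefore cannot be told apart from this difference between the steps. For this difference 0 members passed, beside 0.0189% of all genes in either direction, and 10 members had an unadjusted p under 0.05, all negative, beside 8.41% of all genes in either direction. The members' median was -0.55, beside -0.13 over all genes and -0.29 over the highly expressed ones, and 62 of 70 members were negative. The smallest p-values belonged to Uqcrq (-2.22 ± 0.59, adjusted p = 0.272), Atp5o (-1.59 ± 0.48, adjusted p = 0.318) and Atp5d (-1.59 ± 0.60, adjusted p = 0.427). Atp5d read 8.62 and 7.38 in mCG-PR SLAM against 8.67 and 9.71 in WT SLAM, with the higher mCG-PR value close to the lower WT one. On the positive side Sdhd was at 0.48 (adjusted p = 0.861), Atp5s at 0.70 (adjusted p = 0.878) and Sdha at 0.26 (adjusted p = 0.941). Relative to all genes the members' median of -0.42 became -0.18 without mCG-PR SLAM replicate 2.

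In the KLS compartment the members moved little with genotype. Between mCG-PR KLS of 6 weeks and WT KLS, 0 members passed, beside 0.113% of all genes in either direction, and 5 had an unadjusted p under 0.05, all higher, beside 12.5% of all genes in either direction. The median change was 0.14, beside 0.11 over all genes, with 55 members higher. Between mCG-PR KLS of 13 weeks and WT KLS, of nearly equal age, 0 members passed, beside 0% of all genes, with 4 at an unadjusted p under 0.05 in each direction, beside 13.5% of all genes. The median was 0.03, beside 0.05. Both comparisons use the same WT KLS arrays, so their values are given side by side and are not independent.

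Cox6a2, the heart and skeletal muscle form of a complex IV subunit, had the widest difference on the higher side in both. It read 7.54, 7.45, 8.29 and 8.11 in WT KLS, 8.78, 8.89 and 8.46 in mCG-PR KLS of 6 weeks, and 8.99 and 8.75 in mCG-PR KLS of 13 weeks. Every mCG-PR KLS value lay above every WT KLS value, and all 5 probe sets were higher at both ages. The change was 0.86 ± 0.21 at 6 weeks (n = 3 against 4, adjusted p = 0.153) and 1.02 ± 0.24 at 13 weeks (n = 2 against 4, adjusted p = 0.14), and did not pass. Siglech, a marker of plasmacytoid dendritic cells, moved the same way, at 7.62 to 8.11 and 7.18 to 7.19 in mCG-PR KLS of 6 and 13 weeks against 5.96 to 6.55 in WT KLS, and its part in the Cox6a2 values was not tested. The 8 tested macrophage and dendritic cell markers that include Siglech were split, with 4 higher and 4 lower at each age and medians of 0.05 and 0.08. In SLAM cells, Cox6a2 read 7.92 and 7.00 in WT and 7.92 and 7.79 in mCG-PR. Its partner Cox6a1 read 10.25 to 11.02 in WT KLS and 10.88 to 11.17 in mCG-PR KLS, with overlap.

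Sdhc read 8.37, 8.18, 8.58 and 8.08 in WT KLS, 8.99, 8.58 and 8.68 in mCG-PR KLS of 6 weeks, and 9.12 and 9.04 in mCG-PR KLS of 13 weeks. The mCG-PR gene values lay above WT (0.44 ± 0.15, adjusted p = 0.268, and 0.78 ± 0.17, adjusted p = 0.14), but at 13 weeks the average of the probe sets was at -0.05. Sdha was at 0.36 ± 0.14 at 6 weeks (adjusted p = 0.312), with 16 of 17 probe sets higher. Atp5g3 was at 0.57 ± 0.23 at 13 weeks (adjusted p = 0.311) with overlapping arrays. The smallest p-values on the lower side at 13 weeks were those of Uqcrh, Uqcrb and Ndufs4, while 4 of the 7 complex III genes were higher. Uqcrh, the hinge protein that holds cytochrome c1 to cytochrome c, read 11.25, 11.31, 11.37 and 11.18 in WT KLS and 10.61 and 10.67 in mCG-PR KLS of 13 weeks (-0.64 ± 0.18, adjusted p = 0.174). Uqcrb read 10.25, 10.39, 10.02 and 9.78 against 9.14 and 9.52 (-0.78 ± 0.23, adjusted p = 0.199), with all 5 probe sets lower. Ndufs4 read 9.76, 9.99, 9.87 and 9.91 against 9.35 and 9.45 (-0.48 ± 0.18, adjusted p = 0.265). The 13-week values lay below all WT values for these 3 genes, and none passed. At 6 weeks Uqcrh was at -0.25 (adjusted p = 0.522), Uqcrb at -0.26 (adjusted p = 0.624) and Atp5s at -0.20 (adjusted p = 0.785), with overlap.

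**Figure D5:**
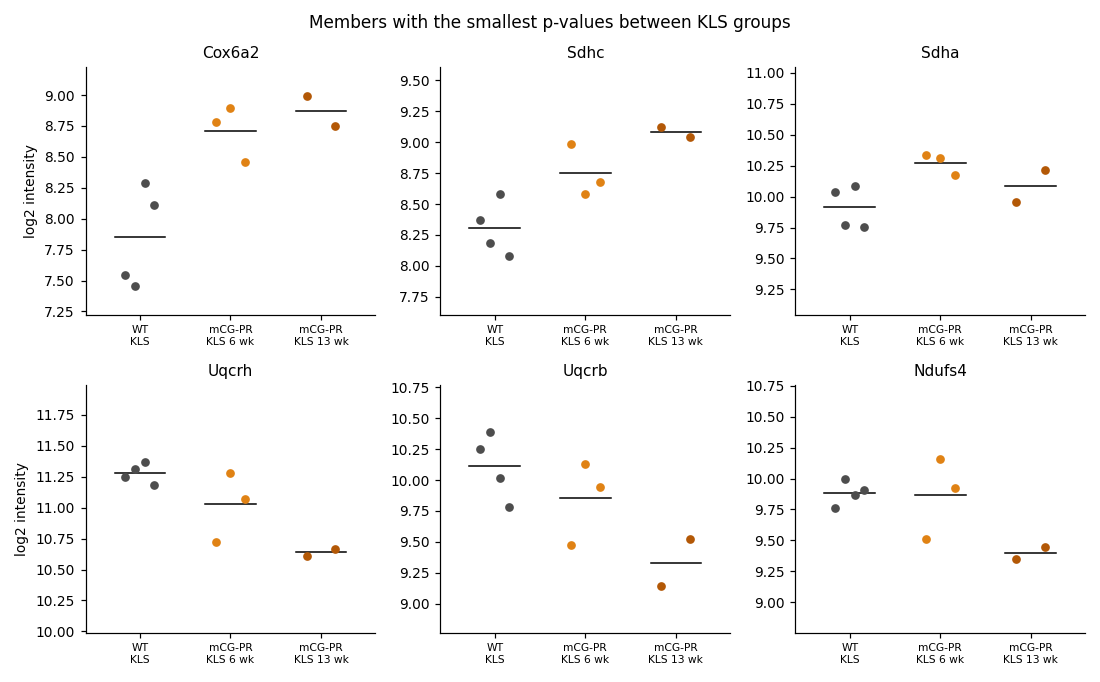
Log2 intensity on the 9 KLS arrays for 6 members with the smallest p-values against WT KLS at 6 or 13 weeks; points are arrays, bars are group means, and every y axis spans the same range. All mCG-PR values of Cox6a2 lie above all WT values, and the 13-week values of Uqcrh, Uqcrb and Ndufs4 lie below all WT values; no member passed.

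Between mCG-PR KLS of 13 and of 6 weeks, 0 members passed, beside 0.00945% of all genes in either direction, and 6 had an unadjusted p under 0.05, all lower, beside 11.9% of all genes in either direction. The median change was -0.13, beside -0.07 over all genes. Ndufs6 was at -0.94 ± 0.34 (adjusted p = 0.337), Ndufb2, a complex I accessory subunit, at -0.74 ± 0.27 (adjusted p = 0.337) and Ndufs4 at -0.46 ± 0.19 (adjusted p = 0.351). Without 6-week replicate 1, Ndufb2 was at -1.10 and passed (adjusted p = 0.0395). On the higher side were Sdhc (0.33, adjusted p = 0.486), Ndufc2 of complex I (0.33, adjusted p = 0.607) and Cox4i2 (0.22, adjusted p = 0.613), the hypoxia-responsive lung form of a complex IV subunit. Cox4i2 stayed between 6.05 and 6.59 on all 13 arrays, close to the filter on low values at 6.00. Its widely expressed partner Cox4i1 was lowest in mCG-PR SLAM, at 10.96 and 10.64 against 11.15 to 11.86 on the other arrays, and did not pass against mCG-PR KLS (-0.78 ± 0.30, adjusted p = 0.106).

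Other genes of mitochondrial metabolism were read from lists of known members. Their counts stand beside the 12.3% of all genes and 25.7% of highly expressed genes called lower in the same comparison. Between mCG-PR SLAM and mCG-PR KLS of 6 weeks all 13 citric acid cycle genes were lower and 3 passed: Dld (-1.09), Cs, the citrate synthase (-1.05), and Mdh2 (-0.99). Of 9 genes of pyruvate entry and its control, 2 were higher and 7 lower. Of these 3 passed, all lower: Pdha1 (-1.69), Pdhx (-1.59) and the regulator Pdk1 (-1.30). Of 67 mitochondrial ribosome genes 63 were lower and 10 (14.9%) passed, with a median of -0.66. Of 11 genes for assembly of complexes III and IV and cytochrome c1, all were lower and 3 passed: Lrpprc (-1.20), Cyc1 (-1.13) and Cox17 (-0.87). Of 6 complex I assembly genes outside the Nduf names 2 were higher and 4 lower, and 2 passed lower, Nubpl (-1.98) and Ecsit (-1.14). Of 8 genes of mitochondrial DNA maintenance 1 was higher and 7 lower, and 2 passed lower, Tfb1m (-1.97) and Ssbp1 (-0.92). Of 12 transcription regulators of respiratory genes 2 were higher and 10 lower, and 4 passed lower: Gabpb1 (-1.52), Myc (-1.43), Gabpa (-1.13) and Nrf1 (-1.07). Glycolysis differed less: of 18 genes 7 were higher and 11 lower, 1 passed (Gpi1, -0.98), and the median was -0.09. Of 11 antioxidant and uncoupling genes 4 were higher and 7 lower, and 0 passed in this comparison.

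In the other comparisons few genes of these lists passed. Between WT SLAM and WT KLS, Gabpb1 (-1.16), Ssbp1 (-1.25), Tfam (-1.07) and Glrx2 (-1.56) passed lower and Prdx5 (1.28), a mitochondrial peroxiredoxin, passed higher. The citric acid cycle list had a median of -0.47 there with 12 of 13 lower, and the mitochondrial ribosome -0.15. Between mCG-PR SLAM and WT SLAM the mitochondrial ribosome list had a median of -0.37 (51 of 67 lower), the citric acid cycle -0.02 and glycolysis 0.16, and no gene of any of these lists passed. The 17 mitotic genes had medians of -1.14 between WT SLAM and WT KLS (0 passed), -2.13 between mCG-PR SLAM and mCG-PR KLS (14 passed) and -0.45 between the SLAM groups (13 of 17 lower, 0 passed). Their part in the members' values was not tested.

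The median SD of a member was 0.25 in WT KLS, 0.28 in mCG-PR KLS of 6 weeks, 0.16 in mCG-PR KLS of 13 weeks, 0.31 in WT SLAM and 0.27 in mCG-PR SLAM. Over all genes tested the median SD was 0.26 in WT SLAM and 0.26 in mCG-PR SLAM. With 2 to 4 arrays per group, these SDs cannot be ranked between groups. Over all genes with 3 or more probe sets, replicates correlated at 0.895 in WT SLAM and 0.893 in mCG-PR SLAM. In the KLS groups the correlations were 0.961 to 0.972. The widest pairs were Atp5s in WT SLAM, at 4.36 and 6.96, and Cox4nb in mCG-PR SLAM (SD 1.56), neither of them a subunit of a complex.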

How the data were processed

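Expression was measured in 13 samples on Affymetrix Mouse Exon 1.0 ST arrays. The submitters' processing notes name RMA and mm9, with roles and settings not given in the sources used here. Values as deposited are probe set intensities on a linear scale, from 2.34 to 21748. The number of arrays limits the precision. The log2 of each intensity was taken, and probe sets annotated to exactly 1 gene (208397 of 229581) were summarised per gene by their median where a gene had 3 or more. Genes under the 30th percentile of mean log2 value (6.00) were left out, which left 10586. Groups came from the labels. limma 3.58.1 in R 4.3.3 was fitted to all 13 arrays with 5 groups and array weights estimated separately for KLS and SLAM cells, with Benjamini-Hochberg adjustment over all genes tested and a threshold of 0.05; scripts were tested on simulated data. Quoted errors are standard errors of that fit.

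Members and gene lists were chosen with earlier results of these data known. Named members are those that passed, up to 10 per direction and comparison, the 3 with the smallest p where fewer passed, the widest change per complex between the WT groups, the Sdh genes, isoform pairs and X-linked members; up to 4 genes are named per other list. Alternatives changed the filter, gene summary, normalisation, array weights, arrays fitted and replicate block, and left out each array in turn. Promoter windows came from RefSeq on GRCm38.p6.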

Additional observations from a re-analysis of the deposited data

How the results depend on the processing

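The number of members called depended on the setting, and so did the sign of some members. Between WT SLAM and WT KLS the 1 call (Ndufb3) became 0 with the mean of probe sets and 0 with the replicate block, and 3 both without array weights and with compared groups only; leaving out single arrays gave 0 to 1. Between mCG-PR SLAM and mCG-PR KLS of 6 weeks the 11 calls became 21 with the mean of probe sets, 4 after quantile normalisation, 6 with array medians subtracted, 5 with the replicate block, 29 without array weights and 17 with compared groups only; leaving out single arrays gave 2 to 21. Both for mCG-PR SLAM against WT SLAM and for the difference between the genotype effects, the fit without array weights called 2 members in place of 0. Leaving out single arrays gave 0 to 1 between mCG-PR KLS of 13 and 6 weeks. The causes of these shifts were not tested. Where a left-out array leaves 1 in its group, that array is assumed to vary like the other groups. Samples that share a replicate number did not deviate together (correlations from -0.07 to 0.08). In groups of 2 arrays the deviations mirror each other, so this check cannot show that the numbers pair no samples. The 5 members called with the block were among the 11.

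The members' median change relative to all genes stayed negative under every alternative run for mCG-PR SLAM against mCG-PR KLS, for mCG-PR SLAM against WT SLAM and for the difference between the genotype effects. For WT SLAM against WT KLS it was -0.08. With the 50th percentile filter it was 0.01 and with the 80th 0.10, each over the members above that filter. It ranged from -0.14 to -0.02 for WT SLAM against WT KLS when single arrays were left out, from -0.70 to -0.37 for mCG-PR SLAM against mCG-PR KLS, from -0.55 to -0.12 for mCG-PR SLAM against WT SLAM and from -0.52 to -0.18 for the difference between the genotype effects. Against genes above the 80th percentile, a filter chosen after seeing the data, it was -0.19 for mCG-PR SLAM against mCG-PR KLS, in place of -0.52. That value takes only the members above the filter. All 70 members had a median change of -0.71 there, beside -0.59 over those genes. The median of probe set changes, also chosen after seeing the data, gave -0.52 for that comparison and -0.37 for mCG-PR SLAM against WT SLAM. In the KLS comparisons it changed sign with the array left out: from -0.06 to 0.12 at 6 weeks, from -0.11 to 0.07 at 13 weeks and from -0.17 to 0.01 between the ages. Quantile normalisation moved the median of all genes from -0.19 to 0.00 between mCG-PR SLAM and mCG-PR KLS and from 0.11 to 0.01 between mCG-PR KLS of 6 weeks and WT KLS.

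Of the 70 members, 6 to 16 per comparison changed sign with the mean of probe sets. Among them, and not past the threshold, were Ndufa2 (-0.18), Sdhd (-0.35) and Sdhc (-0.70) between mCG-PR SLAM and mCG-PR KLS, Sdhc at 13 weeks against WT KLS (-0.0528), between the ages (-0.21) and between the SLAM groups (-0.41), and Sdha in the difference between the genotype effects (-0.0493). With single arrays left out, Atp5j ranged from -0.0026 to 0.59 between mCG-PR SLAM and mCG-PR KLS, and Atp5s from -0.60 to 2.00 in the difference between the genotype effects. Signal over background limits Cox4i2, Atp5j and Atp5s, which lie near the filter.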
